A study of Mus musculus with 6 samples.

Results

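The SMN complex genes described here are Smn1, Gemin2, Ddx20, Gemin4, Gemin5, Gemin6, Gemin7, Gemin8 and Strap. They were taken by gene symbol, and all 9 were found among the 25576 genes of the bulk-seq data and in each of the 6 libraries. Bulk-seq measured ribosomal RNA-depleted RNA from whole spinal cord of FVB mice at postnatal day 4. The 3 control libraries came from mice of genotype mSmn+/-, hSMN2 2tg/0, and the 3 SMA libraries from mice of genotype mSmn-/-, hSMN2 2tg/0, the severe form of the Taiwanese model of spinal muscular atrophy. Both groups therefore carried the human SMN2 transgene and at least a single knockout allele of the mouse gene, and no wild-type mouse was included. The methods give triplicates with n = 1 per group, and whether the 3 libraries of a group come from separate mice is unclear. The p-values here therefore measure the spread between libraries, which may be technical. Values are FPKM, a fragment count scaled to the exon length of the gene and to the mapped fragments of the library, and a gene not listed for a library was taken as 0 there. Between 21197 and 22296 genes were listed per library. FPKM holds no read counts, so depth in reads is unknown. Relative depth was estimated from genes listed at under 0.15 FPKM in both a library and SMA replicate 1. The most common ratio of their values, inverted, put the 6 libraries at 1.00 to 1.16 relative to SMA replicate 1.

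The SMN complex loads a ring of Sm proteins onto the small nuclear RNAs (snRNAs) of the spliceosome in the cytoplasm, after which the particles return to the nucleus. SMN, the product of Smn1 in the mouse, forms oligomers around which the Gemin proteins and Strap (also called Unrip) assemble. The complex acts in all cell types, yet motor neurons of the spinal cord are the cells known to degenerate when SMN is low. In humans, most transcripts of SMN2 skip the exon known in the field as exon 7 and give an unstable protein.

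That exon is shown here because it is where the knockout allele of the Taiwanese line differs from the intact gene: the allele has an Hprt cassette in its place. In the mouse reference it is exon 8 of the 9 exons of the main Smn1 transcript in GENCODE M21 (the longest coding one), at chr13:100135689-100135739 (GRCm38, plus strand). Capitals mark the stop codon.
Smn1 exon: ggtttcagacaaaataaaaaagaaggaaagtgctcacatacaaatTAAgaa
It makes up 51 of the 1222 bases of the transcript (4.17%). The gene-level FPKM of Smn1 therefore draws mostly on exons outside the replaced part, and it does not check the genotype labels. Exon-level values were not analysed here. Whether RNA of the human transgene contributed to the mouse value was not tested.

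The makeup of the libraries was described with lists of marker genes of cell types that the tissue could hold. Control replicate 2 stood apart from the other 5 libraries. All 10 genes of the hepatocyte list were highest in it, and their FPKM summed to 29331 there, or 7.09% of all FPKM. In the other libraries that list held 0.0127% to 0.0275%. Alb, which encodes serum albumin and was the most abundant gene of the list, was at 15895 FPKM in control replicate 2 and at 24.6 to 56.2 FPKM elsewhere. All 7 genes of the erythroid list were also highest in control replicate 2, with a sum of 18823 FPKM (4.55%) against 1115 to 1861 FPKM (0.304% to 0.516%) elsewhere. The beta-globin gene Hbb-bs led that list, with 7026 FPKM against 424 to 694 FPKM. The Pearson correlation of control replicate 2 with the other libraries was 0.836 to 0.849 across genes on the log2 scale, whereas all other pairs of libraries were at 0.983 or above.

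Markers of the labelled tissue were present in every library. The 6 neuronal genes, led by the tubulin gene Tubb3, summed to 500 FPKM in control replicate 2 and to 912 to 1001 FPKM elsewhere, and 3 of the 6 were higher in all SMA than in all control libraries, as were 10.3% of all genes with a mean FPKM of 0.5 or more. The 6 motor neuron genes, led by the peripherin gene Prph, summed to 58.2, 39.3 and 88.3 FPKM in the controls (replicates 1 to 3, in this order here and in what follows) and to 58.1, 65.0 and 60.5 FPKM in SMA. The 6 oligodendrocyte genes, led by the myelin gene Mbp, summed to 1224 FPKM in control replicate 3 and to 663 to 839 FPKM elsewhere. Control replicate 3 was thus the highest of the 6 libraries in both lists. The 6 astrocyte genes, led by Aldoc, summed to 559 FPKM in control replicate 2 and to 750 to 830 FPKM elsewhere, with 1 of the 6 higher in all SMA libraries (10.3% of all genes). The 6 skeletal muscle genes, led by Acta1, summed to 2.27 to 7.11 FPKM. No gene of these lists was at 0 FPKM in any library. In whole tissue, fewer cells of a type and less RNA per cell cannot be told apart. The part of this makeup in the values of the SMN complex was not tested, and the comparisons are given with and without control replicate 2.

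**Figure D1:**
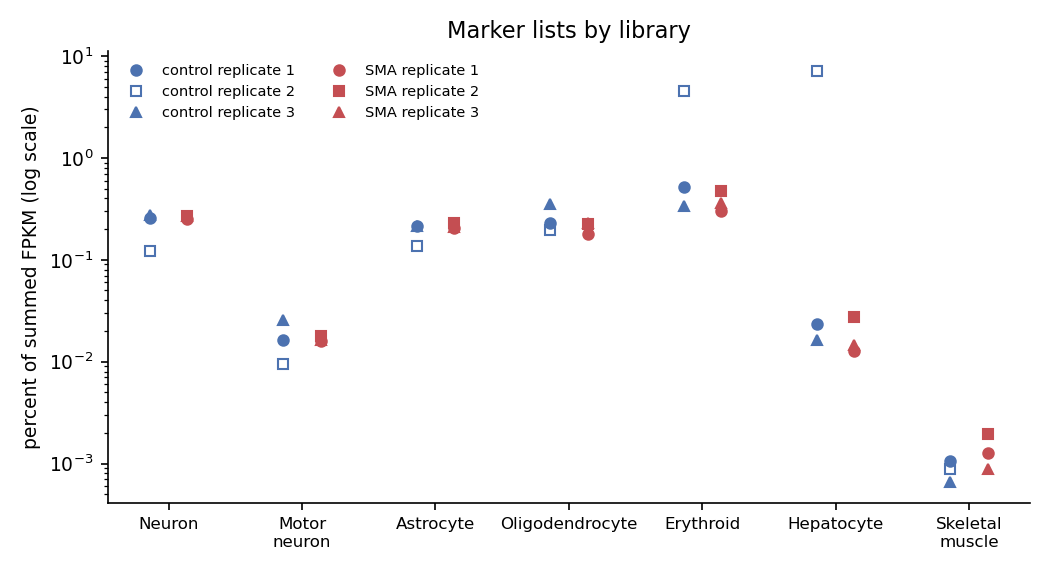
Summed FPKM of 7 marker lists as a percent of all FPKM of the library (log axis), with control libraries in blue and SMA libraries in red. Control replicate 2 (open squares) holds 7.09% in the hepatocyte list and 4.55% in the erythroid list, and control replicate 3 is highest in the motor neuron and oligodendrocyte lists.

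Levels of the 9 genes spanned more than an order of magnitude, and FPKM, being scaled to length, allows them to be set side by side. Strap was highest at 37.8 ± 4.35 FPKM (mean ± SD, n = 6 libraries), followed by Gemin7 at 13.4 ± 2.38 FPKM, Smn1 at 9.97 ± 1.40 FPKM and Gemin5 at 6.80 ± 0.475 FPKM. Below them came Ddx20 at 4.91 ± 0.498 FPKM, Gemin8 at 3.75 ± 0.778 FPKM, Gemin4 at 2.90 ± 0.195 FPKM, Gemin2 at 2.85 ± 0.812 FPKM and Gemin6 at 2.06 ± 0.394 FPKM. Strap alone made up 40.4% to 49.2% of the summed FPKM of the complex in each library. The ranges of Strap and Gemin7, of Smn1 and Gemin5, and of Gemin5 and Ddx20 did not overlap over the 6 libraries. Neighbours in the order with overlapping ranges were Gemin7 and Smn1, Ddx20 and Gemin8, Gemin8 and Gemin4, Gemin4 and Gemin2, and Gemin2 and Gemin6. Even so, Ddx20 was above Gemin8 and Gemin2 above Gemin6 within each of the 6 libraries, while Gemin4 and Gemin2 were in that order in only 4. The 9 genes together summed to 91.8, 73.8 and 84.2 FPKM in the controls and to 83.8, 85.8 and 87.5 FPKM in SMA.

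**Figure D2:**
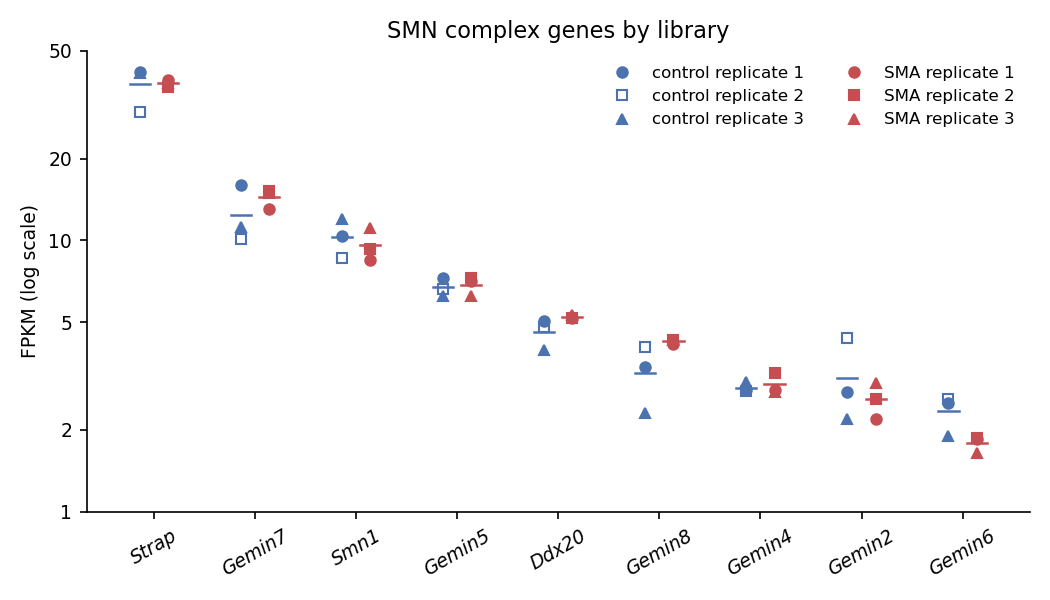
FPKM of the 9 genes in each library (log axis), ordered by mean level, with bars at the group means. Strap lies above all other members in every library, and the SMA points of Ddx20 and Gemin8 lie above all control points, those of Gemin6 below.

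SMA was compared with control on log2(FPKM + 1) with limma, which fits a linear model to each gene and moderates its variance with those of all genes. Fold changes are SMA against control on that scale, which understates the change of low genes. Of 17088 genes whose mean FPKM was 0.5 or more, 0 (0%) had a p under 0.05 after Benjamini-Hochberg adjustment, and accordingly none of the 9 members did. At an unadjusted p under 0.05, 0 of the 9 members were lower and 0 higher, against 409 genes lower (2.39%) and 581 higher (3.4%) among all genes tested. That split of all genes turned under 2 of the 3 scalings: it was 387 lower and 336 higher with each library rescaled to the same summed FPKM, 598 lower and 547 higher with median ratio scaling, and 337 lower and 639 higher with quantile normalization. The median log2 fold change of the members was 0.029, beside 0.044 for all genes tested, with 6 members above 0 and 3 below. Under median ratio scaling it turned to -0.033, with 3 members above 0 and 6 below, where the median of all genes was -0.013, and without SMA replicate 2 it was -0.0086. In 1 of the 9 members the SMA libraries were all below the control libraries, as in 6.67% of all genes tested, and in 2 of the 9 they were all above, as in 10.3% of all genes tested. Counts this small are not set apart from those shares.

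Without control replicate 2, Gemin8 was higher at an unadjusted p under 0.05 and no member was lower. Among the 16574 genes then tested, 5.2% passed that rule lower in SMA and 5.27% higher, and 2 genes (0.0121%) passed the adjusted threshold in limma in SMA against control. These were Snora74a and Rpph1, both noncoding RNA genes and neither a member, named after their values were seen. Groups did not overlap in 2 of the 9 members lower in SMA and 2 higher, where 13.9% and 14.2% of all genes tested did so. The 2 members lower were Gemin6 and Strap, and the 2 higher were Ddx20 and Gemin8.

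**Figure D3:**
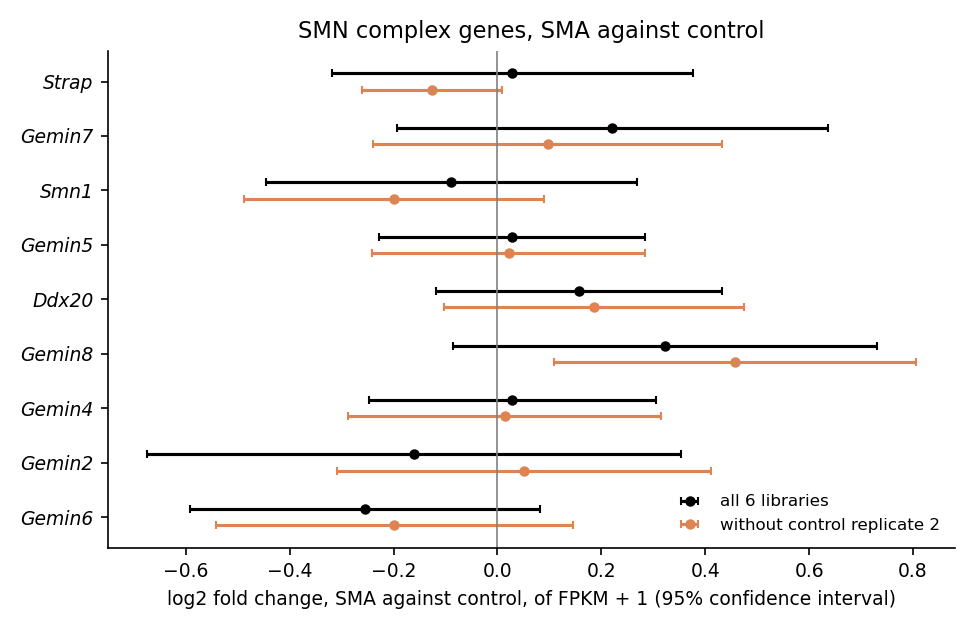
Log2 fold change of each member, SMA against control, with its 95% confidence interval from limma, for all 6 libraries (black) and without control replicate 2 (orange). All black intervals include 0, and the orange interval of Gemin8 runs from 0.11 to 0.81.

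Smn1, the targeted gene, measured 10.4, 8.64 and 11.9 FPKM in the controls and 8.48, 9.30 and 11.1 FPKM in SMA. The groups overlapped, with the highest value in control replicate 3 and the lowest in SMA replicate 1. SMA against control had a log2 fold change of -0.089 (95% confidence interval -0.45 to 0.27), and the exact two-sided permutation test gave p = 0.6. With 3 libraries against 3, that test cannot give a p below 0.1. Leaving out control replicate 2 gave -0.20 (-0.49 to 0.089) and leaving out control replicate 3 gave 0.014, so the direction turned with a single control library left out.

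Gemin2 binds SMN directly and holds the Sm proteins during assembly. It measured 2.75, 4.38 and 2.19 FPKM in the controls and 2.20, 2.61 and 2.99 FPKM in SMA. Control replicate 2 held the highest value, and the other 5 libraries mixed. Its log2 fold change of -0.16 (95% confidence interval -0.68 to 0.35) became 0.051 (-0.31 to 0.41) without that library. The level of Smn1 relative to Gemin2 within a library was 3.77, 1.97 and 5.46 in the controls and 3.86, 3.57 and 3.71 in SMA. With control replicate 2, the lowest library, the SMA ratios lay inside the range of the controls. Against control replicates 1 and 3 alone, SMA replicate 1 lay inside that range and SMA replicates 2 and 3 below it.

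Ddx20 encodes the DEAD-box helicase of the complex, also known as Gemin3. It measured 5.03, 4.81 and 3.95 FPKM in the controls and 5.17, 5.17 and 5.32 FPKM in SMA. All SMA libraries were above all control libraries, and the SMA values were close together (5.22 ± 0.0853 FPKM against 4.60 ± 0.570 FPKM, mean ± SD, n = 3 each). The log2 fold change was 0.16 (95% confidence interval -0.12 to 0.43, unadjusted p = 0.219 and adjusted p = 0.683 from limma), and the exact two-sided permutation test gave p = 0.1, the smallest it can give. Control replicate 3 was the lowest library, and leaving it out gave 0.070.

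Gemin4 encodes a partner of that helicase. It varied least among the members below 5 FPKM, from 2.76 to 3.26 FPKM over the 6 libraries, and the groups overlapped (2.86 ± 0.125 FPKM in control and 2.94 ± 0.273 FPKM in SMA, mean ± SD, n = 3 each). Its log2 fold change was 0.029 (95% confidence interval -0.25 to 0.31), and it turned to -0.023 under median ratio scaling and to -0.027 without SMA replicate 2. Its locus in the data shares a span with 5 other genes, of which Glod4 overlaps it on the same strand in GENCODE M21, so fragments may be divided between them.

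Gemin5, a large WD-repeat protein, recognizes the snRNAs that the complex loads. It ranged from 6.26 to 7.28 FPKM, and both ends of that range lay in SMA libraries. For Gemin5 the log2 fold change of 0.029 (95% confidence interval -0.23 to 0.28) turned to -0.033 under median ratio scaling, to -0.014 without control replicate 3 and to -0.0086 without SMA replicate 2. Gemin5 shares its locus with Gm12246 on the opposite strand.

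Gemin6 and Gemin7 have Sm-like folds and bind each other, and Gemin8 joins that pair to SMN. Gemin6 measured 2.52, 2.60 and 1.91 FPKM in the controls and 1.85, 1.88 and 1.64 FPKM in SMA. All SMA libraries were below all control libraries, with control replicate 3 only just above SMA replicate 2. The log2 fold change was -0.26 (95% confidence interval -0.59 to 0.082, unadjusted p = 0.116 and adjusted p = 0.683 from limma), and the exact two-sided permutation test gave p = 0.1. Without control replicate 3 it was -0.35, with an unadjusted p of 0.0407 from limma. Under quantile normalization the groups of Gemin6 overlapped.

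Gemin7 measured 16.0, 10.1 and 11.2 FPKM in the controls and 13.0, 15.2 and 15.0 FPKM in SMA. Control replicate 1 was the highest of the 6 libraries and control replicate 2 the lowest, so the groups overlapped. The log2 fold change was 0.22 (95% confidence interval -0.19 to 0.64), and the exact two-sided permutation test gave p = 0.4. It was 0.40 without control replicate 1 (unadjusted p = 0.0161 from limma) and 0.096 without control replicate 2. The Pearson correlation of Gemin7 with its binding partner Gemin6 was -0.30 over the 6 libraries and 0.32 over the 5 without control replicate 2, given as a description. Gemin7 shares its locus with Zfp296 on the opposite strand.

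Gemin8 measured 3.40, 4.05 and 2.31 FPKM in the controls and 4.15, 4.28 and 4.30 FPKM in SMA. All SMA libraries were above all control libraries, although control replicate 2 reached nearly the same level. The means were 3.25 ± 0.880 FPKM in control and 4.24 ± 0.0776 FPKM in SMA (mean ± SD, n = 3 each). Its log2 fold change of 0.32 (95% confidence interval -0.086 to 0.73) was the largest in size among the 9 members with all 6 libraries. The unadjusted p was 0.103 and the adjusted p 0.683 from limma. The exact two-sided permutation test gave p = 0.1. Leaving out control replicate 2 gave 0.46 (0.11 to 0.81, unadjusted p = 0.0168 and adjusted p = 0.392 from limma), and leaving out control replicate 3 gave 0.15. There Gemin6 (-0.35), Gemin2 (-0.33) and Gemin7 (0.16) were further from 0 than Gemin8. So was Gemin6 under median ratio scaling (-0.30, against 0.26 for Gemin8), and Gemin7 without control replicate 1 (0.40, against 0.36 for Gemin8).

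Strap binds the pair of Gemin6 and Gemin7 and is the cytoplasmic WD-repeat protein of the complex. It measured 41.7, 29.8 and 41.4 FPKM in the controls and 39.0, 36.8 and 38.2 FPKM in SMA. Control replicates 1 and 3 were above all SMA libraries and control replicate 2 below them. Its log2 fold change of 0.029 (95% confidence interval -0.32 to 0.38) turned to -0.13 (-0.26 to 0.0079, unadjusted p = 0.0615 and adjusted p = 0.495 from limma) without control replicate 2. It was also below 0 under median ratio scaling (-0.039), quantile normalization (-0.013) and weights for libraries (-0.11).

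**Figure D4:**
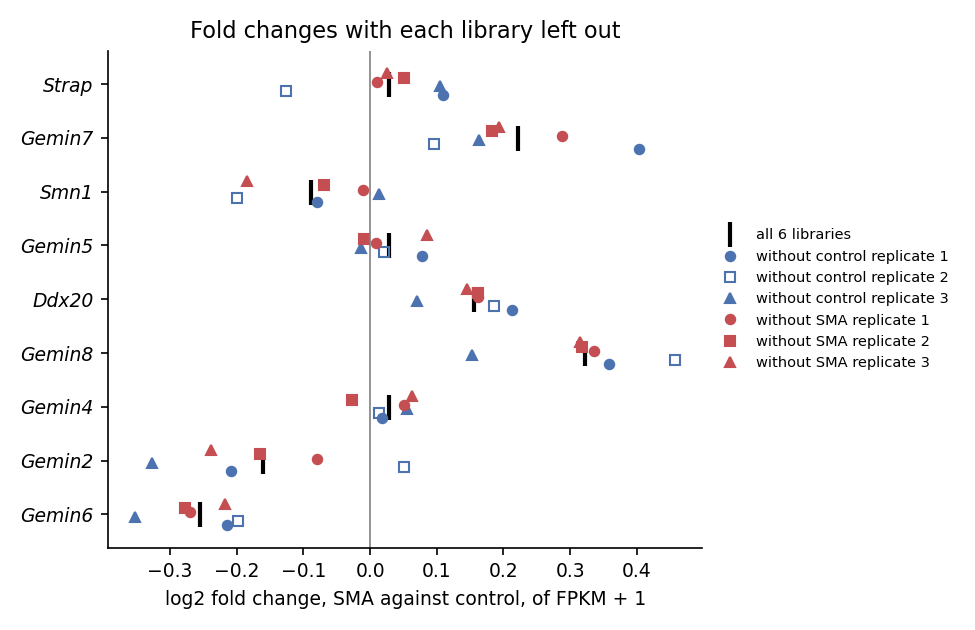
Log2 fold change of each member, SMA against control, with all 6 libraries (black bar) and with each library left out in turn (symbols). Ddx20, Gemin6, Gemin7 and Gemin8 stay on their side of 0 throughout, Strap and Gemin2 cross 0 without control replicate 2, and Smn1, Gemin4 and Gemin5 cross it without another library.

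For Ddx20 and Gemin8, both above all control values in SMA, the Pearson correlation on the log2 scale was 0.93 over the 6 libraries and 0.97 over the 5 without control replicate 2, the highest of the 36 pairs of members in both cases. The points share library, group and FPKM scaling, and control replicate 3, which was highest in the motor neuron and oligodendrocyte lists, was lowest in both genes. Among the other controls the order differed, with Ddx20 higher in control replicate 1 and Gemin8 higher in control replicate 2. The part of the group difference and of control replicate 3 in the correlation was not tested. Under median ratio scaling neither gene had groups without overlap, and both remained above 0 in log2 fold change.

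The stretches just upstream of the 3 members whose groups did not overlap are given to set their promoters side by side. Each is the 150 bases before the RefSeq start (GRCm38), on the strand of the gene, with matches of searched motifs in capitals. Ddx20 is at chr3:105687572-105687721 on the minus strand, Gemin8 at chrX:166170304-166170453 and Gemin6 at chr17:80224301-80224450, both on the plus strand.
Ddx20: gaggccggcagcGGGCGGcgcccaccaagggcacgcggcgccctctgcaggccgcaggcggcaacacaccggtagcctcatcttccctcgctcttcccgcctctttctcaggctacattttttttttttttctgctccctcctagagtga
Gemin8: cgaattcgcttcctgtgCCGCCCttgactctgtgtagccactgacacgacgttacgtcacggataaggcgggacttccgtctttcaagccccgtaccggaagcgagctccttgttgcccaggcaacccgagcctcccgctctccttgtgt
Gemin6: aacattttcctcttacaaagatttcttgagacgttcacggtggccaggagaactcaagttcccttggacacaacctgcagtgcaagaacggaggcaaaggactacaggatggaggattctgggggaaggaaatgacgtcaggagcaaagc
The capitals in Ddx20 and Gemin8 are GC boxes (GGGCGG, read as CCGCCC on the other strand). In windows of 300 bases, 250 before and 50 after the start, 6 of the 9 members held a GC box on either strand, beside 35.7% of the 32851 RefSeq promoters of that length. CCAAT was found in 2 of the 9, Smn1 and Gemin8 (37.4% of all), and TATAAA in 0 of the 9 (13.6% of all). The ETS core CCGGAAGT was found in 1 of the 9, Strap (3.89% of all), and the NRF1 core GCATGCGC in 0 of the 9 (2.71% of all). No match shared a base with another. The windows of the members had a median GC content of 58.0% (52.7% over all promoters) and a median ratio of observed to expected CpG of 0.881 (0.384 over all). The window of Gemin8 held 4 motif matches, not all of them in the stretch shown, and that of Ddx20 held 1. Gemin6 held none of the 5 motifs.

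Partners of the complex in snRNP assembly were examined next. They were the methylosome that modifies Sm proteins, the factors of snRNA export, cap trimethylation and import, and Cajal body proteins listed with other partners. All 22 were tested, and 0 passed an unadjusted p of 0.05 lower in SMA and 0 higher. Their median log2 fold change was 0.066, beside 0.044 for all genes tested. It turned to -0.023 without control replicate 2 (0.0016 for all genes tested) and to -0.016 with weights for libraries, and it was 0.0041 under median ratio scaling. SMA libraries were all below control libraries in 2 of the 22 (6.67% of all genes tested) and all above in 0 (10.3% of all). Those 2 were Wrap53 and Fbl, which encode a Cajal body protein and the nucleolar methyltransferase fibrillarin, and they are named after their values were seen. Wrap53 measured 2.96, 4.36 and 3.34 FPKM in the controls and 2.75, 2.64 and 2.22 FPKM in SMA. The 3 partners with the highest mean were the deubiquitinase gene Usp9x at 100.3 FPKM, the GTPase gene Ran at 46.9 FPKM and the importin gene Kpnb1 at 40.6 FPKM. Ran was nearly level over the libraries, from 46.4 to 47.7 FPKM (log2 fold change -0.011, and 0.012 with the same summed FPKM). Kpnb1 had a log2 fold change of -0.018, which was 0.0045 with the same summed FPKM. Control replicate 2 was the lowest library for 17 of the 22 partners, as for 44.9% of all genes tested. Usp9x was among the 17 (77.7 FPKM), and its log2 fold change of 0.034 turned to -0.13 without it. Without that library, 2 of the 22 passed an unadjusted p of 0.05 lower in SMA (5.2% of all genes then tested) and 0 higher (5.27% of all), the 2 being Usp9x and, named after its values were seen, the exportin gene Xpo1. Groups then did not overlap in 5 of the 22 lower in SMA (13.9% of all) and 0 higher (14.2% of all), and the 5 were these 2, Ran, Wrap53 and Fbl. By the unadjusted p, 1 partner was lower under median ratio scaling (3.5% of all genes tested) and 1 with weights for libraries (3.62% of all). Leaving out control replicate 1 gave 1 partner lower (3.35% of all) and 1 higher (6.03% of all).

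Of the Sm and Lsm proteins that the complex loads, all 10 genes were tested, and 0 passed an unadjusted p of 0.05 lower in SMA and 0 higher. The median log2 fold change was 0.17, beside 0.044 for all genes tested, with 7 genes above 0 and 3 below. SMA libraries were all below control libraries in 1 of the 10 (6.67% of all genes tested), which was Snrpg, named after its values were seen, and all above in 0 (10.3% of all). Without control replicate 2 the median was 0.050, beside 0.0016 for all genes then tested. At an unadjusted p under 0.05, 0 of the 10 were then lower (5.2% of all) and 2 higher (5.27% of all), and groups did not overlap in 1 lower (13.9% of all), again Snrpg, and 2 higher (14.2% of all). The 2 higher by both rules were Snrpb and Snrpd1, named after their values were seen, with log2 fold changes of 0.35 and 0.40. With all 6 libraries these were 0.21 and 0.29 (unadjusted p = 0.182 and 0.101 from limma). The imprinted neuronal gene Snrpn was the most abundant of the list at 215 FPKM, with 128 FPKM in control replicate 2 and 215 to 250 FPKM elsewhere, and it shares its locus with Snurf. Next were Lsm11, a component of the U7 particle, at 34.3 FPKM and Snrpe at 24.8 FPKM. The log2 fold changes were 0.37 for Snrpn, 0.22 for Lsm11 and -0.025 for Snrpe, and without control replicate 2 they were 0.10, -0.0089 and 0.0029. With weights for libraries, 2 of the 10 genes were higher at an unadjusted p under 0.05 (4.16% of all genes tested). Leaving out control replicate 1 gave 1 higher (6.03% of all).

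The 17 genes within 500 kb of Smn1 on chromosome 13 were also compared, since they flank the targeted locus. Of these, 10 were tested, and the Naip genes of the cluster beside Smn1 were among the 7 below the minimum. At an unadjusted p under 0.05, 0 tested neighbours were lower (2.39% of all genes tested) and 1 was higher (3.4% of all). Groups did not overlap in 1 tested neighbour lower in SMA (6.67% of all) and 1 higher (10.3% of all). Without control replicate 2 they did not overlap in 1 lower (13.9% of all) and 2 higher (14.2% of all). The median log2 fold change was -0.022, and it turned to 0.046 without control replicate 3, 0.00045 without SMA replicate 1 and 0.030 without SMA replicate 3, and was -0.11 without SMA replicate 2. Serf1, the nearest tested gene below Smn1 at a distance of 10281 bases, was at 8.69 to 14 FPKM (log2 fold change 0.14, 95% confidence interval -0.26 to 0.54). Serf1 shares its locus in the data with BC001981, at 0 to 0.207 FPKM, so fragments may be divided between them. Gtf2h2, the nearest tested gene above Smn1 at 322528 bases, was at 9.02 to 12.6 FPKM (log2 fold change -0.042, -0.39 to 0.31). The gene past the unadjusted threshold was Ak6, an adenylate kinase gene whose locus in the data begins 479475 bases away and is shared with Taf9 and Rad17, so fragments may be divided between them. It measured 28.1, 20.9 and 26.2 FPKM in the controls and 28.8, 32.4 and 34.2 FPKM in SMA, with a log2 fold change of 0.34 (0.013 to 0.66, unadjusted p = 0.0435 and adjusted p = 0.683 from limma). Without control replicate 2 the log2 fold change of Ak6 was 0.22 (0.020 to 0.41). The unadjusted p of Ak6 from limma was under 0.05 in 10 of the 15 alternatives. It was 0.103 with the same summed FPKM, 0.0766 with the replicate number as a block, 0.0608 without control replicate 3, 0.114 without SMA replicate 2 and 0.141 without SMA replicate 3. Ak6 was also the tested neighbour above all controls in SMA with all 6 libraries, joined by Marveld2 without control replicate 2. The tested neighbour below all controls in both cases was Ocln, the gene of the tight junction protein occludin. Ocln, Marveld2, Naip5 and Cartpt are named after their values were seen. Ocln measured 3.50, 6.13 and 2.84 FPKM in the controls and 2.12, 2.81 and 2.34 FPKM in SMA, with control replicate 3 only just above SMA replicate 2. Its log2 fold change was -0.55 (95% confidence interval -1.12 to 0.029, unadjusted p = 0.0595 and adjusted p = 0.683 from limma), and it was -0.29 (-0.64 to 0.063, unadjusted p = 0.0943 from limma) without control replicate 2, the highest library. The unadjusted p of Ocln from limma was 0.0489 with a pseudocount of 0.1, 0.0366 with the same summed FPKM, 0.0330 with the replicate number as a block and 0.0224 without control replicate 3. The 0 neighbours lower became 1 there, where 2.74%, 2.26%, 1.77% and 4.16% of all genes tested were lower. With no minimum FPKM the neighbour lower was Naip5 (unadjusted p = 0.0442 from limma, 1.92% of all genes lower). Its SMA libraries were also all below the control libraries. Naip5 measured 0.231, 0.679 and 0.344 FPKM in the controls and 0.141, 0.0881 and 0.178 FPKM in SMA. Without control replicate 1 the neighbours higher were 2, Ak6 and the neuropeptide gene Cartpt (log2 fold change 0.92, unadjusted p = 0.00335 from limma, 6.03% of all genes higher), against 0.53 for Cartpt with all 6 libraries.

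**Figure D5:**
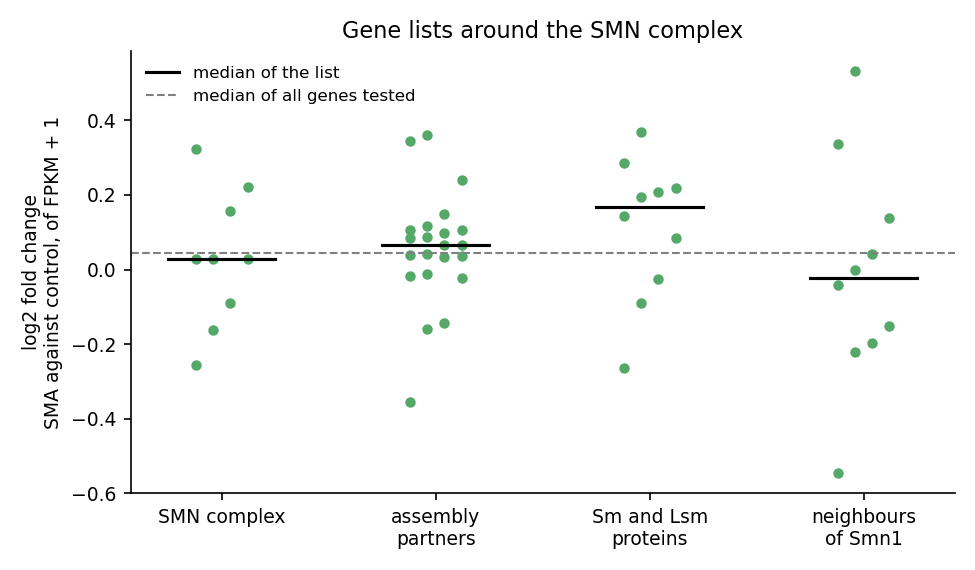
Log2 fold changes, SMA against control, of the tested genes of each list (points), with the median of the list (black) and of all genes tested (dashed, 0.044). The medians are 0.029 for the SMN complex, 0.066 for the partners, 0.17 for the Sm and Lsm proteins and -0.022 for the neighbours of Smn1, and with a single library left out all but that of the Sm and Lsm proteins can change sign.

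The genes whose log2 values followed Smn1 most closely over the 6 libraries, among 15416 with a mean FPKM of 1 or more, were Utp14b, Rad54l2, Mrs2, Ociad2 and Nol9, with Pearson correlations of 0.98, 0.97, 0.97, 0.97 and 0.97. They are a description of 6 points picked from many genes. Over the 5 libraries without control replicate 2, these genes ranked 12, 29, 40, 37 and 55, and 0 of them were among the first 5. No member of the complex was close to them: the highest correlation of a member with Smn1 over the 6 libraries was 0.61, for Strap, and the lowest was -0.68, for Gemin8.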

How the data were processed

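The deposited values are FPKM per gene, which the authors computed with cufflinks after hisat2 alignment of strand-specific libraries. Per the labels the build is mm10. The versions and the annotation release are not given in the sources used here. Genes absent from a library were set to 0 FPKM. Groups and replicate numbers came from the sample titles. Of 25576 genes, 25408 were found by identifier in GENCODE M21. SMA and control were compared on log2(FPKM + 1), for genes whose mean FPKM was 0.5 or more, with lmFit and eBayes (trend) of limma 3.58.1 in R 4.3.3, two-sided, with Benjamini-Hochberg adjustment over all genes tested. The study's count test was not used, since the files hold no counts. The procedure was tested on simulated data. Single genes were also compared with an exact two-sided permutation test. Python 3.11.15, pandas 2.3.3, numpy 2.4.6 and matplotlib 3.10.9 were used for tables, sequences and plots.

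The members and lists were chosen with earlier results of these data known. Named are all members; of each other list, genes past an unadjusted p of 0.05 and the 3 with the highest mean; of the neighbours of Smn1, the nearest tested gene on each side and any past that p; the 5 genes most like Smn1; and the most abundant gene of each marker list. Other genes are named after their values were seen, for groups that did not overlap (Wrap53, Fbl, Snrpg, Ocln and Marveld2) or for passing a threshold without control replicate 2 (Xpo1, Snrpb, Snrpd1, Snora74a and Rpph1) or under another alternative (Naip5 and Cartpt). The result of 1 marker list is not reported here. The alternatives were a pseudocount of 0.1, no minimum or a minimum mean of 1 FPKM, 3 scalings, the replicate number as a block, weights for libraries, robust eBayes and leaving out each library. Promoter windows are from RefSeq and matched all 9 members.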

Additional observations from a re-analysis of the deposited data

How the results depend on the processing

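No member passed the adjusted threshold of limma under any of the 15 alternatives. Of 135 member values under them, 123 kept their direction and 12 turned. The 123 include values that could not turn. No minimum FPKM, a minimum mean of 1 FPKM, the replicate block and robust eBayes leave each log2 fold change as it was. Turned values were, without 1 library, 0.014 for Smn1 (control replicate 3), 0.051 for Gemin2 and -0.13 for Strap (control replicate 2), -0.027 for Gemin4 (SMA replicate 2), and -0.014 and -0.0086 for Gemin5 (control replicate 3 and SMA replicate 2). Median ratio scaling gave -0.023 for Gemin4, -0.033 for Gemin5 and -0.039 for Strap, quantile normalization -0.013 for Strap, and arrayWeights 0.029 for Gemin2 and -0.11 for Strap. Over the libraries left out, log2 fold changes ran from -0.20 to 0.014 for Smn1, -0.33 to 0.051 for Gemin2, -0.027 to 0.063 for Gemin4, -0.014 to 0.086 for Gemin5 and -0.13 to 0.11 for Strap.

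Of the other named genes, Usp9x was at -0.035 under median ratio scaling, -0.0038 under quantile normalization and -0.11 with arrayWeights, and ran from -0.13 to 0.13 over the libraries left out. With the same summed FPKM, Ran was at 0.012 and Kpnb1 at 0.0045. Over the libraries left out, Kpnb1 ran from -0.055 to 0.020, Lsm11 from -0.0089 to 0.34, Snrpe from -0.056 to 0.018, Serf1 from -0.0057 to 0.25 and Gtf2h2 from -0.12 to 0.087. The causes were not tested.

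The 0 genes past the adjusted threshold became 0 to 2 over the libraries left out, 2 without control replicate 2. Genes lower at an unadjusted p under 0.05 (409) numbered 619 with arrayWeights and 125 to 862 over the libraries left out, lowest without SMA replicate 3 and highest without control replicate 2. Genes higher (581) numbered 882 with no minimum FPKM, where more genes are tested, 336 with the same summed FPKM, and 214 to 1040 over the libraries left out, lowest without SMA replicate 3 and highest without control replicate 3. Members lower at that p were 0 to 1 over the libraries left out (Gemin6 without control replicate 3, where 4.16% of all genes tested were lower). Members higher were 1 under quantile normalization, 1 with arrayWeights (Gemin8 in both, with 3.74% and 4.16% of all genes higher), and 0 to 1 over the libraries left out (1.25% to 6.07% of all genes higher). Members with groups that did not overlap were 0 lower under quantile normalization, 0 higher under median ratio scaling, and 1 to 2 lower and 2 to 3 higher over the libraries left out. The shares of all genes tested were 6.14% lower under quantile normalization, 8.22% higher under median ratio scaling, and 8.74% to 13.9% lower and 13.5% to 21.6% higher over the libraries left out. The order of levels held without 3 of the 6 libraries, and Gemin4 and Gemin2 changed places without the other 3.

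With the replicate number as a replicate block, 0 genes passed the adjusted threshold, 303 genes were lower in SMA and 356 were higher by the unadjusted p, and 0 members were among them. Libraries of the same number correlated at -0.037, 0.016 and 0.077 in their deviations from the group means. Pairs of different numbers ran from -0.055 to 0.043. The control means include control replicate 2, which stood apart, so these values cannot show whether the numbers pair the samples. Depth in reads is unknown, so counting error could not be given, and the level of members near 2 FPKM may be less precise than that of Strap.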
